A study of Homo sapiens with 6 samples.

Results

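Long intergenic non-coding RNAs (lincRNAs) that are well expressed in the sequenced cells were described here, in libraries of human cells labelled THP-1 with and without recombinant human RBP4 protein. The lincRNAs were the 171 rows, of the 28847 genes in the deposited table, that carried the annotation class lincRNA and had a mean of 100 or more normalized reads over the 6 libraries. A normalized read is a gene's read count divided by the library's size factor. Of 2626 lincRNA rows, 177 reached that level, and 6 of these were left out by name: SNHG4, SNHG8, SNHG15, SNHG19, EPB41L4A-AS1 and AC005394.1. The mean level chose the 171 and is given only as a description. 1 of the 171 is counted in the totals unless stated otherwise, and its level is not given.

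The control group consisted of 3 libraries labelled only THP-1, the name of a monocytic leukaemia line, and the other 3 libraries came from the same line given recombinant human RBP4, the plasma carrier of retinol. The series describes the treated cells as a model of unpolarised (M0) macrophages, and dose, exposure time and any priming agent are not given in the labels. No label states that libraries of a group came from separate cultures, so p-values measure the spread between these libraries, which may be technical. Each library held 15202000 to 16420517 reads assigned to genes, at which 3 reads are 0.183 to 0.197 CPM (counts scaled to the library total). Markers of the labelled cell type were mostly absent: 2 of 12 monocyte and macrophage markers reached 10 CPM in all 6 libraries, and CSF1R, the receptor of macrophage colony-stimulating factor, had means of 2.10 normalized reads in the control and 2.22 in the RBP4 group. All 11 erythroid markers, among them GATA1, KLF1 and the fetal globin genes, reached 10 CPM in all 6 libraries. Their summed level was 1980.3 to 1997 CPM in the control libraries and 1675 to 1728 CPM in the RBP4 libraries, and its part in the changes described here was not tested.

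LincRNAs are transcribed by RNA polymerase II from their own promoters and are mostly capped, spliced and polyadenylated like messenger RNAs, but they do not code for protein. Many stay in the nucleus, where NEAT1 builds the bodies called paraspeckles and MALAT1 gathers in speckles rich in splicing factors. NORAD works in the cytoplasm by holding Pumilio proteins, and MEG3 is expressed from the maternal copy of an imprinted region. Several lincRNAs are known as the long precursors from which microRNAs (miRNAs) are cut. The libraries were made from RNA selected on poly-T beads, which captures polyadenylated RNA and not mature miRNAs. The kit does not mark the strand, so a gene and another that overlaps it on the opposite strand were not told apart.

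Some of the miRNAs encoded inside these lincRNAs are shown. The hosts of the first 5 fell or rose, and the host of the last 5 did not pass. Others, such as those in MUC20-OT1, are left out. Sequences are from RefSeq (GRCh38.p14), 5′ to 3′, with the seed, bases 2 to 8, in capitals. The pair from MIR210HG lies at chr11:568112-568133 and chr11:568150-568171 on the minus strand, and those of MEG3 lie at chr14:100852409-100852431 and chr14:100814551-100814570 on the plus strand. The mature miR-4435 is encoded in both CYTOR (chr2:87629764-87629785, plus strand) and MIR4435-2HG (chr2:111321061-111321082, minus strand). The last 5 lie in FTX on the X chromosome.
hsa-miR-210-3p: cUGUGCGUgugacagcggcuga
hsa-miR-210-5p: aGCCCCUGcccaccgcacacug
hsa-miR-770-5p: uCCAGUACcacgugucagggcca
hsa-miR-2392: uAGGAUGGgggugagaggug
hsa-miR-4435: aUGGCCAGagcucacacagagg
hsa-miR-421: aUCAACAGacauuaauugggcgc
hsa-miR-374b-5p: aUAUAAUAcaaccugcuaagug
hsa-miR-545-3p: uCAGCAAAcauuuauugugugc
hsa-miR-374b-3p: cUUAGCAGguuguauuaucauu
hsa-miR-374a-3p: cUUAUCAGauuguauuguaauu
All of these seeds differ from one another.

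All 171 lincRNAs passed the filter on low values and were tested with limma's moderated test on log2(normalized reads + 1). At a Benjamini-Hochberg adjusted p under 0.05, 41 rose with RBP4, 49 fell and 81 did not pass. The share called was 52.6%, beside 50.6% of the 15676 genes tested, with 24.5% of all genes raised and 26.1% lowered. Of other genes with a mean of 100 or more, 59.8% of protein-coding and 60.5% of antisense genes were called, more than of the lincRNAs. Median levels were 737 normalized reads for these protein-coding genes, 196 for antisense genes and 214 for the lincRNAs. At 100 to 200 normalized reads, 42.7% of lincRNAs and 48.8% of protein-coding genes were called, and at 200 to 500, 55.6% and 48.0%. At 500 to 2000 the shares were 63.0% and 60.9%, and at 2000 or more 100% of 8 lincRNAs and 81.1%. The median log2 fold change of the lincRNAs was 0.0056 and that of all genes -0.0021, and the median size of the change, regardless of sign, was 0.23 in both. With a mean of 100 or more, that size was 0.18 in protein-coding and 0.29 in antisense genes. Control and RBP4 libraries did not overlap for 99 of the 171, or 57.9%, beside 56.2% of all genes. Called changes of at least 2-fold were seen in 5 of the 171 lincRNAs: LINC01287, MEG3 and LINC00467 rose, and MIR210HG and AC099568.2 fell. Among all genes, which include those at lower levels, the share was 5.89%. With a mean of 100 or more, 98 of 9801 protein-coding genes rose and 47 fell by this much. Of 129 antisense genes at that level, 4 rose and 0 fell. When libraries were scaled to their total instead of by the authors' size factors, 53 lincRNAs rose and 32 fell.

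**Figure D1:**
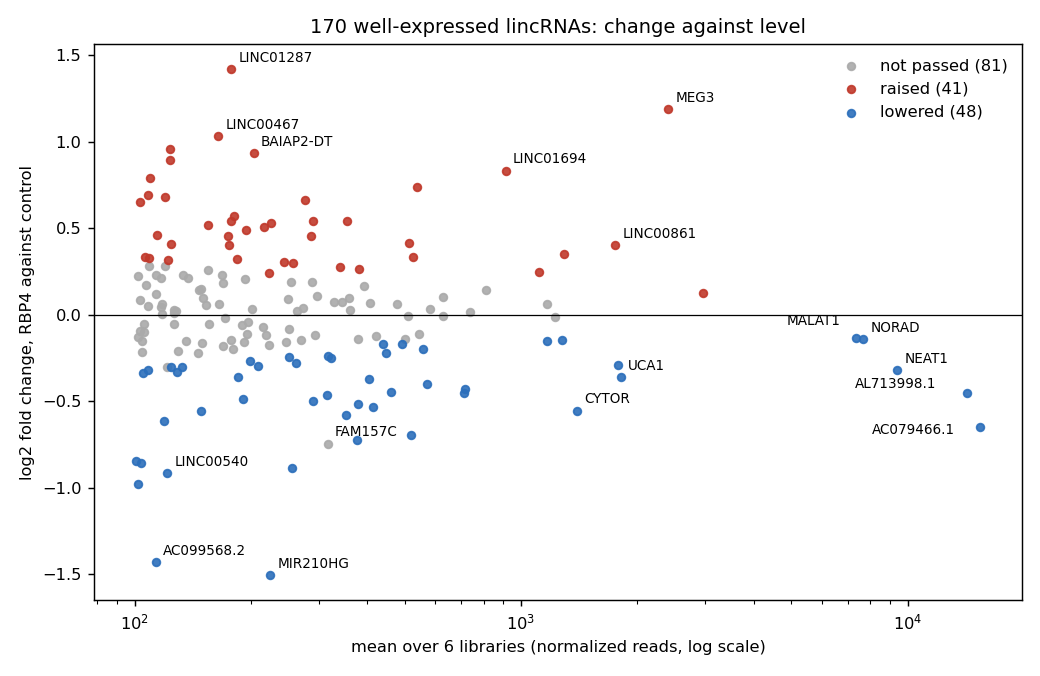
Each point is 1 of 170 lincRNAs (1 lowered lincRNA is not plotted), with the mean over the 6 libraries on a log axis and the log2 fold change of RBP4 against control on the other. The 41 raised and 48 lowered lincRNAs are both found at means from 100 to 2000, and the 5 points farthest to the right are all lowered.

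Calls in each direction were not evenly spread over the levels. Of the 82 lincRNAs with a mean of 100 to 200 normalized reads, 24.4% rose and 18.3% fell, and of the 8 with 2000 or more, 6 fell and 2 rose. Among protein-coding genes of the same lowest level, 40.1% rose and 8.76% fell, and at 2000 or more 14.2% rose and 66.9% fell. Both classes therefore held a larger share of lowered genes at higher levels. Between these ends, 22.2% of 54 lincRNAs rose and 33.3% fell at 200 to 500 normalized reads, and 25.9% of 27 rose and 37.0% fell at 500 to 2000. The 606 tested lincRNAs below a mean of 100 had 136 raised and 50 lowered, with a median log2 fold change of 0.19.

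**Figure D2:**
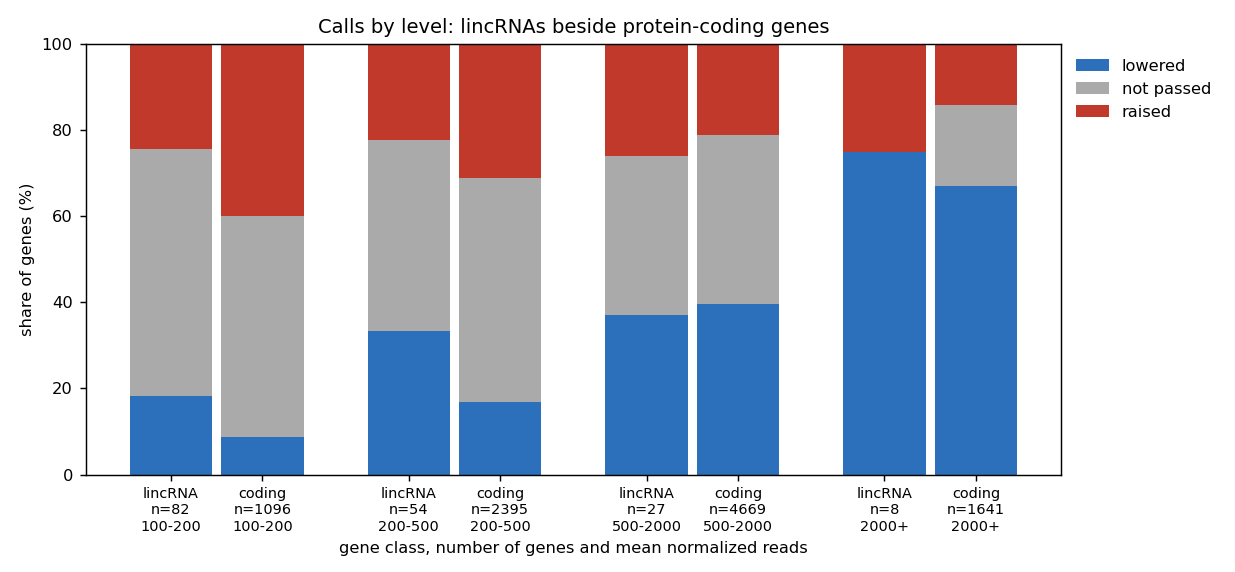
Bars give the share of genes raised, not passed and lowered, in percent, for lincRNAs and protein-coding genes within 4 ranges of mean normalized reads. The lowered share rises from 18.3% to 75% of lincRNAs and from 8.76% to 66.9% of protein-coding genes between the lowest and the highest range.

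Summed over all 171, the lincRNAs held 126803 ± 1589 normalized reads in the control and 112592 ± 839.8 in the RBP4 group (SD, n = 3 each), 1.13-fold less. This was 0.769 to 0.790% of the total in the control libraries and 0.720 to 0.731% in the RBP4 libraries. The decrease lay in the most abundant members. The 5 most abundant of those described, AC079466.1, AL713998.1, NEAT1, NORAD and MALAT1, fell together from 61442 ± 1187 to 46688 ± 544, or 1.32-fold, and they made up 45.2% of the sum. The other 166 lincRNAs summed to 65360.4 ± 469.6 in the control and 65904 ± 472 in the RBP4 group. In bulk RNA, fewer cells of a type and less RNA per cell cannot be told apart.

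AC079466.1, a lincRNA with no established function at chr19:28606688-28615229, was the most abundant. It had 19022, 18880.0 and 18605 normalized reads in the control libraries and 12080.0, 12035 and 11916 in the RBP4 libraries. The RBP4 libraries were all below the control libraries, which lay within a narrow range, and the level fell 1.57-fold (log2 fold change -0.65, SE 0.022, adjusted p 3.2e-37). AL713998.1, at chr6:67887646-67889339 on the minus strand, had 16996, 16438 and 15919.6 normalized reads in the control libraries and 11976, 12107 and 11966 in the RBP4 libraries. Again the groups did not overlap, and it fell 1.37-fold (log2 fold change -0.45, SE 0.023, adjusted p 6.3e-27). Per kilobase of gene model, AL713998.1 was the highest of the abundant lincRNAs with 8868 normalized reads, against 3464 for AC079466.1, 1438 for NORAD, 831 for MALAT1 and 412 for NEAT1. Together these lincRNAs with accession-like names made up 24.8% of the summed level of the 171. The nearest tested protein-coding gene lies far away in both cases: UQCRFS1, a subunit of respiratory complex III, starts 606853 bases from AC079466.1 and fell by 1.27-fold, and ADGRB3, an adhesion receptor, starts 746028 bases from AL713998.1 and fell by 1.74-fold.

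**Figure D3:**
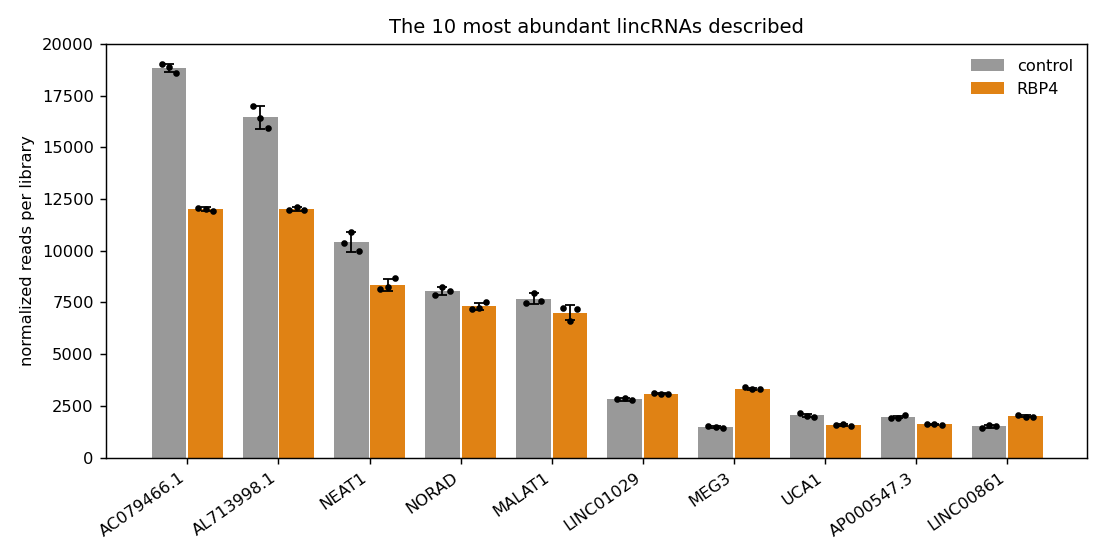
Bars give the mean of normalized reads in the control and the RBP4 group for the 10 most abundant lincRNAs whose levels are given, points the 3 libraries of each group and error bars the SD. AC079466.1 and AL713998.1 stand above the others in both groups and are lower with RBP4, and MEG3 is 2.28-fold higher with RBP4.

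Of the nuclear RNAs, NEAT1 (chr11:65422774-65445540) had 10394, 10908 and 9982 normalized reads in the control libraries and 8127, 8257 and 8677 in the RBP4 libraries. All RBP4 libraries were lower, and NEAT1 fell 1.25-fold (log2 fold change -0.32, SE 0.028, adjusted p 1.4e-13). MALAT1, its neighbour at chr11:65497688-65506516, had 7495, 7975 and 7554 normalized reads in the control libraries and 7211, 6593 and 7202 in the RBP4 libraries. The groups did not overlap, but the decrease was small (log2 fold change -0.13, SE 0.03, adjusted p 3.0e-04) and did not pass when libraries were scaled to their total (adjusted p 0.076). MALAT1 and the long form of NEAT1 are known to end without a regular poly(A) tail, and poly-T selection captures such ends incompletely. The nearby gene FRMD8 rose 1.12-fold (adjusted p 0.02), but did not pass in DESeq2 or without control library 2 or RBP4 library 3.

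The cytoplasmic lincRNA NORAD (chr20:36045622-36050960, minus strand) had 7871, 8225 and 8062 normalized reads in the control libraries and 7184, 7214 and 7517 in the RBP4 libraries. The groups did not overlap, and NORAD fell 1.10-fold (log2 fold change -0.14, SE 0.027, adjusted p 8.1e-06). Its annotated transcript of 5339 bases held 15 matches to TGTANATA, the element read by Pumilio proteins, between positions 761 and 4599. The Pumilio gene PUM2 fell from 2075 ± 109 to 1904 ± 67.8 normalized reads (adjusted p 0.0071). The PUM2 change did not pass without control library 2 or RBP4 library 1, nor when scaled to the total. Of the 50-base stretches of NORAD, 35.3% also occur in other annotated genes, so its count can include their reads. LINC01029 (chr18:77971294-77993722) was among the abundant lincRNAs that rose, from 2829 ± 71.3 to 3081 ± 24.1 normalized reads (log2 fold change 0.12, SE 0.033, adjusted p 0.0013).

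MEG3 (chr14:100779410-100861031, plus strand) was the abundant lincRNA with the largest increase. It had 1505, 1479 and 1410.2 normalized reads in the control libraries and 3394, 3315 and 3293 in the RBP4 libraries. The RBP4 libraries were all above the control libraries, with little spread within each group, and MEG3 rose 2.28-fold (log2 fold change 1.19, SE 0.037, adjusted p 1.3e-39). MEG3 lies in an imprinted region where DLK1, which encodes a membrane protein related to the ligands of Notch, is expressed from the paternal copy. DLK1 was the nearest tested protein-coding gene, with its start 53705 bases away, and it fell 1.35-fold, from 16397 ± 338 to 12117 ± 469.5 normalized reads (log2 fold change -0.44, SE 0.024, adjusted p 6.8e-24). MEG8 and MEG9, lincRNAs downstream of MEG3 with means under 100, were looked up after their values were seen. MEG8 had 13.5, 34.2 and 35.3 normalized reads in the control libraries and 39.6, 57.6 and 50.6 in the RBP4 libraries, and it rose 1.78-fold (log2 fold change 0.91, SE 0.27, adjusted p 0.0051), a call lost in DESeq2 and without control library 1, the lowest of its libraries. MEG9 had 10.3, 7.04 and 9.64 normalized reads in the control libraries and 39.6, 27.4 and 26.7 in the RBP4 libraries, and it rose 3.47-fold (log2 fold change 1.68, SE 0.33, adjusted p 1.9e-05). These 3 non-coding RNAs were higher with RBP4 while DLK1 was lower.

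MIR210HG is the host of miR-210, which is widely used as a marker of the response to low oxygen. Its RefSeq promoter window at chr11:568408-568707 (GRCh38.p14, minus strand) is shown because MIR210HG had the largest decrease among the 171 and the core of the hypoxia response element, ACGTG, occurs in it. The match, in capitals, begins 170 bases before the start of the gene.
MIR210HG promoter: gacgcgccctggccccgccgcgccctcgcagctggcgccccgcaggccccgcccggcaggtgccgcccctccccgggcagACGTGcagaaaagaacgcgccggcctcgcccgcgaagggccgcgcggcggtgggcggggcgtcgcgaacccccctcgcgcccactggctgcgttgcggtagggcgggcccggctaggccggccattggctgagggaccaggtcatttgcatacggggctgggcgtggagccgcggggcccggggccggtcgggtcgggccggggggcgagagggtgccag

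MIR210HG (chr11:565660-568457, minus strand) had 325, 346 and 323 normalized reads in the control libraries and 140.2, 108 and 104 in the RBP4 libraries. Every RBP4 library was below every control library, and MIR210HG fell 2.83-fold (log2 fold change -1.50, SE 0.11, adjusted p 1.3e-19). The nearest tested protein-coding gene, LMNTD2, starts 7678 bases away and had 120.4 ± 9.96 normalized reads in the control and 146 ± 17.1 in the RBP4 group, which did not pass (adjusted p 0.064). The miRNA itself was not measured by these libraries.

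CYTOR and MIR4435-2HG, the hosts of miR-4435, also fell. CYTOR (chr2:87454781-87636740), named as a regulator of the cytoskeleton, had 1719, 1651 and 1615 normalized reads in the control libraries and 1115, 1126 and 1149 in the RBP4 libraries, and fell 1.47-fold (log2 fold change -0.55, SE 0.043, adjusted p 6.7e-18). MIR4435-2HG (chr2:111036776-111523376, minus strand) had 847, 792 and 826 normalized reads in the control libraries and 624, 626 and 577 in the RBP4 libraries, and fell 1.35-fold (log2 fold change -0.43, SE 0.057, adjusted p 1.9e-09). In neither did the groups overlap. They share sequence: 16.0% of the 50-base stretches of CYTOR occur in MIR4435-2HG and 21.6% of those of MIR4435-2HG in CYTOR, so reads can be exchanged between them and the separate values are uncertain. The miRNA hosts MUC20-OT1, with 564 normalized reads in the control and 523 in the RBP4 group (adjusted p 0.16), and FTX, with 159 and 180.2 (adjusted p 0.17), did not pass. A list of 22 miRNA host genes that includes lower levels and other annotation classes had 11 tested genes, of which 2 rose and 4 fell. Outside the 171, MIR22HG rose from 16.9 ± 2.32 to 64.0 ± 5.84 normalized reads (3.78-fold, adjusted p 8.0e-10), and MIR17HG, the host of a miRNA cluster driven by MYC, fell from 963 ± 34.7 to 692 ± 50.6 normalized reads (1.39-fold, adjusted p 2.6e-11).

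Beyond MEG3, the largest increases were in lincRNAs of low to middle level. LINC01287 (chr7:153355365-153413981, minus strand) had 85.9, 97.6 and 106 normalized reads in the control libraries and 242, 281 and 255 in the RBP4 libraries. Its RBP4 libraries were all above its control libraries, and it rose 2.69-fold (log2 fold change 1.42, SE 0.12, adjusted p 6.3e-17), the largest increase among the 171. LINC00467 (chr1:211382803-211435333) had 91.1, 118 and 116 normalized reads in the control libraries and 218, 213 and 232 in the RBP4 libraries, and rose 2.05-fold (log2 fold change 1.03, SE 0.12, adjusted p 2.3e-11). LINC01694 (chr21:45593654-45603056) had 646, 736 and 592 normalized reads in the control libraries and 1181, 1228 and 1099 in the RBP4 libraries, and rose 1.78-fold (log2 fold change 0.83, SE 0.06, adjusted p 6.7e-15). In both the groups did not overlap. BAIAP2-DT (chr17:81029130-81034881, minus strand) starts 241 bases from the start of BAIAP2 and is transcribed away from it. It had 135, 129 and 155 normalized reads in the control libraries and 258, 263 and 279 in the RBP4 libraries, without overlap of the groups, and rose 1.91-fold (log2 fold change 0.94, SE 0.11, adjusted p 1.2e-11). BAIAP2, which encodes an adaptor of the actin cytoskeleton, had 551 ± 29.9 normalized reads in the control and 532 ± 16.3 in the RBP4 group (adjusted p 0.54).

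The other 7 of the 12 largest increases rose by 1.58 to 1.95-fold, with adjusted p from 1.8e-15 to 4.6e-05. These 12, and the 12 largest decreases, were chosen among lincRNAs whose groups do not overlap, so the lack of overlap follows from the choice. AL031123.2 rose from 84.1 ± 10.1 to 164 ± 6.65 normalized reads and AL365181.2 from 86.0 ± 0.449 to 161 ± 8.68 normalized reads. AC015813.1 rose from 403 ± 11.8 to 675 ± 50.8 normalized reads and FP565171.1 from 79.9 ± 10.4 to 139.5 ± 23.6 normalized reads. The control libraries of AL365181.2 and AC015813.1 lay close together, those of FP565171.1 farther apart. LINC00520 rose from 91.7 ± 9.84 to 147 ± 9.62 normalized reads and AC093766.1 from 214 ± 26.1 to 338 ± 23.2 normalized reads. AC232271.1 rose from 82.8 ± 13.4 to 134 ± 17.3 normalized reads, and it lies within PPP1R3F, a regulator of glycogen metabolism, which rose from 20.3 ± 4.97 to 43.8 ± 9.20 normalized reads (adjusted p 3.6e-04). For AL031123.2, FP565171.1 and LINC00467, the nearest protein-coding genes RREB1, PPP2R2D and TRAF5 fell by 1.25, 1.13 and 1.10-fold (adjusted p 2.4e-13, 0.0022 and 0.026), although the call of PPP2R2D was lost when scaled to the total, and that of TRAF5 in 6 alternatives, among them without control library 1, control library 2 or RBP4 library 1. Of the more abundant lincRNAs, LINC00861 rose from 1512 ± 65.4 to 1997 ± 54.9 normalized reads (log2 fold change 0.40, SE 0.041, adjusted p 2.3e-13) and LINC00958 from 1134 ± 36.1 to 1448 ± 42.6 normalized reads (log2 fold change 0.35, SE 0.045, adjusted p 5.6e-10), named after their values were seen.

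**Figure D4:**
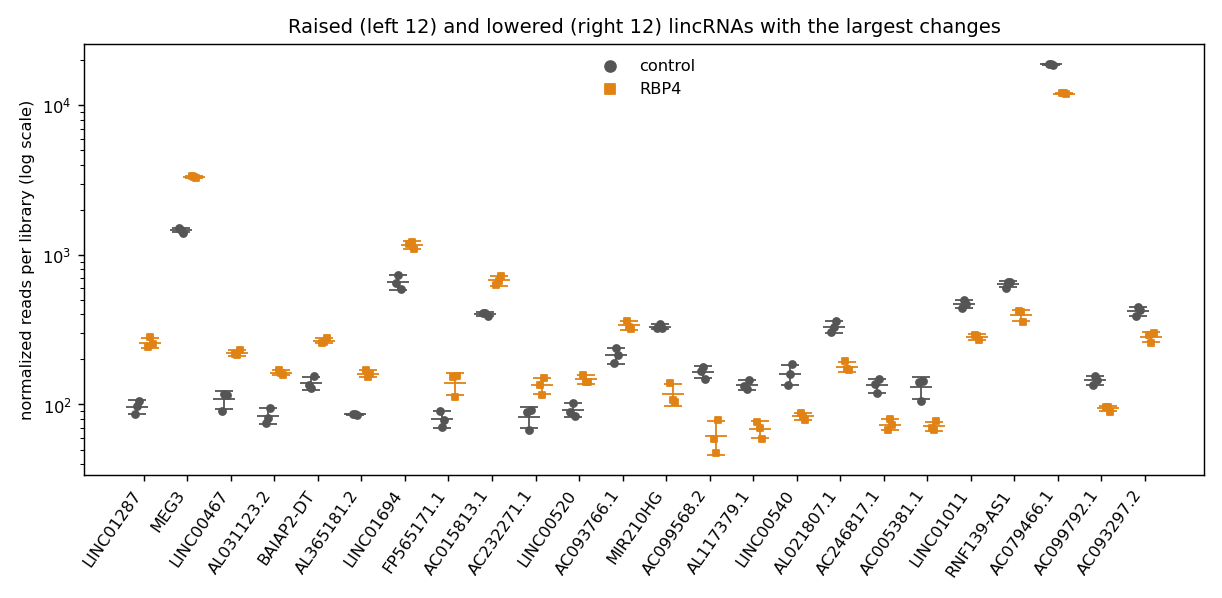
Points are the normalized reads of each library on a log axis for the 12 raised and the 12 lowered lincRNAs with the largest called changes, with bars for the mean and the SD of each group of 3. Only lincRNAs whose groups do not overlap were chosen, so the gap between control and RBP4 points in all 24 follows from the choice.

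Among the decreases, AC099568.2 (chr1:89820174-89820868, minus strand) came next to MIR210HG. It had 168, 179 and 149 normalized reads in the control libraries and 59.0, 47.2 and 79.2 in the RBP4 libraries. All RBP4 libraries were lower than the control libraries, and it fell 2.67-fold (log2 fold change -1.43, SE 0.15, adjusted p 3.6e-12). It starts 146 bases from LRRC8D, a subunit of volume-regulated anion channels on the other strand, which fell from 1579 ± 33.2 to 1477 ± 60.8 normalized reads (log2 fold change -0.097, SE 0.042, adjusted p 0.049), a call that was lost in 10 of 15 alternatives, among them without control library 1 or 3 and without RBP4 library 1 or 3. AL021807.1 (chr6:27122657-27123221, minus strand) lies in the histone gene region of chromosome 6 and had 303, 329 and 363 normalized reads in the control libraries and 194, 172 and 171 in the RBP4 libraries. The groups did not overlap, and it fell 1.85-fold (log2 fold change -0.89, SE 0.095, adjusted p 2.2e-12). The nearest protein-coding gene, the histone gene HIST1H2BJ with its start 9529 bases away, fell 1.82-fold, from 975 ± 27.1 to 534 ± 7.01 normalized reads (adjusted p 7.2e-22). LINC01011 (chr6:2987967-2991173) fell from 470.1 ± 27.7 to 284 ± 11.9 normalized reads (log2 fold change -0.73, SE 0.077, adjusted p 1.4e-12), while NQO2, a quinone reductase whose start lies 20 bases away on the same strand, rose from 1649 ± 45.9 to 2194 ± 93.2 normalized reads (adjusted p 2.6e-14). 10.4% of the exon bases of LINC01011 overlap NQO2, so part of its reads may come from it.

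RNF139-AS1 starts 162 bases from RNF139, which encodes a ubiquitin ligase of the endoplasmic reticulum. RNF139-AS1 fell 1.62-fold, from 642 ± 32.1 to 398 ± 33.9 normalized reads (adjusted p 7.5e-14), and RNF139 had 635 ± 44.0 normalized reads in the control and 658 ± 34.6 in the RBP4 group (adjusted p 0.5). LINC00540 fell from 159.6 ± 25.4 to 83.4 ± 4.41 normalized reads (log2 fold change -0.92, SE 0.14, adjusted p 4.5e-08). AC246817.1 fell from 134 ± 14.6 to 73.5 ± 6.36 normalized reads (log2 fold change -0.86, SE 0.14, adjusted p 7.8e-07). AL117379.1, which lies within DIDO1 on the same strand, fell from 135 ± 9.55 to 68.5 ± 8.70 normalized reads (log2 fold change -0.98, SE 0.15, adjusted p 5.7e-08). DIDO1 had 2172 normalized reads in the control and 2209 in the RBP4 group (adjusted p 0.61), and part of the reads of AL117379.1 may come from it. In these 3 lincRNAs every RBP4 library lay below every control library. AC099792.1, which overlaps the transcription factor gene NFIA on the other strand, fell from 145 ± 9.73 to 94.2 ± 3.95 normalized reads (log2 fold change -0.61, SE 0.13, adjusted p 7.7e-05), and NFIA fell from 386 ± 12.9 to 325 ± 14.9 normalized reads (adjusted p 0.0051). AC093297.2 fell from 422 ± 28.9 to 283 ± 23.1 normalized reads (log2 fold change -0.58, SE 0.081, adjusted p 8.3e-09). UCA1, first described in bladder cancer, fell from 2034 ± 95.5 to 1583 ± 35.9 normalized reads (log2 fold change -0.36, SE 0.04, adjusted p 7.5e-12), and was named after its values were seen.

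LincRNAs that lie close together were not always called in the same direction. With gaps of up to 500000 bases, 31 of the 170 lincRNAs whose levels are given fell into 13 clusters. Of these clusters, 4 held at least 2 called lincRNAs: 1 all raised, 1 all lowered and 2 with calls in both directions. The raised cluster, LINC00526 with LINC00667 on chromosome 18, rests on a call of LINC00526 (adjusted p 0.039) that was lost in 7 of 15 alternatives, among them without any 1 of the control libraries and without RBP4 library 1 or 2. The exons of these genes overlap on opposite strands, over 41.2% of LINC00526 and 11.6% of LINC00667, and their reads were not told apart. The largest cluster, with 5 lincRNAs, lay on chromosome 19 around AC079466.1. There AC005307.1 fell from 822 ± 5.81 to 602 ± 22.5 normalized reads (log2 fold change -0.45, SE 0.057, adjusted p 3.7e-10) and AC005381.1 from 130.3 ± 21.4 to 71.6 ± 4.96 normalized reads (log2 fold change -0.84, SE 0.15, adjusted p 2.1e-06), whereas LINC00662 rose from 288 ± 15.0 to 421 ± 35.1 normalized reads (log2 fold change 0.54, SE 0.08, adjusted p 3.3e-08). Of the exon bases of AC005381.1, 63.1% overlap AC005394.2 on the same strand, so these genes share reads. In the cluster on chromosome 22, AC245060.6 rose 1.25-fold and AC245060.5 and AC245060.2 fell 1.23 and 1.30-fold (adjusted p 0.0098, 0.012 and 0.0078). These calls on chromosome 22 were lost in 2 or 3 of the 15 alternatives each, among them without control library 3 for AC245060.6, without control library 1 for AC245060.5, and without control library 2 or RBP4 library 2 for AC245060.2.

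In 33 of the 171, the lincRNA and a protein-coding gene start head to head, within 2000 bases of each other and on opposite strands, at a median distance of 216 bases. Such pairs can share a promoter region that is read in both directions. Both genes were called in the same direction in 6 pairs and in opposite directions in another 6. In 4 pairs only the lincRNA was called and in 11 only the protein-coding gene, and in 6 neither was, KCNJ6 in 1 of them being too low for the test. Among those 11, 34.6% of the exon bases of MAPKAPK5-AS1 overlap its partner MAPKAPK5, and 51.3% of those of LINC01089 overlap other genes. Reads of such overlaps were not told apart. The lincRNA changed more than its partner in 19 pairs, and the median size of the log2 fold change was 0.20 for lincRNAs and 0.19 for partners.

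DNAJC3-DT and DNAJC3, a co-chaperone of the endoplasmic reticulum that dampens the stress kinase PERK, were the pair with nearly equal increases. The start region of DNAJC3-DT at chr13:95676876-95677138 (GRCh38.p14, minus strand) is shown for that reason. It was shortened to leave out the transcribed part of DNAJC3, and the ACGTG in capitals begins 39 bases before the start of DNAJC3-DT.
DNAJC3-DT promoter: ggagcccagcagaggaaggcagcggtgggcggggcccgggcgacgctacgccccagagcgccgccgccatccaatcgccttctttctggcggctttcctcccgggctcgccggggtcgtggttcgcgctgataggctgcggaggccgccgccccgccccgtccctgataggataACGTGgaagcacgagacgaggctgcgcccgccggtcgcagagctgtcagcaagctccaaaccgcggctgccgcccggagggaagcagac

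DNAJC3-DT had 155, 105 and 125 normalized reads in the control libraries and 189, 184 and 173 in the RBP4 libraries, and its RBP4 libraries were all above its control libraries. It rose 1.42-fold (log2 fold change 0.52, SE 0.12, adjusted p 3.1e-04), and DNAJC3 rose from 819.9 ± 39.4 to 1161 ± 43.0 (log2 fold change 0.50, adjusted p 2.0e-13). AL365181.2 with BCAN and AF117829.1 with the kinase gene RIPK2 were the other pairs that rose together. AC008124.1 with ARID2, a subunit of a chromatin remodelling complex, and AC099568.2 with LRRC8D were among the pairs that fell together. In the opposite direction, APTR rose from 236 ± 15.1 to 344 ± 21.8 normalized reads (log2 fold change 0.54, SE 0.087, adjusted p 2.7e-07) while RSBN1L fell from 1191 ± 53.7 to 1062 ± 17.8 (adjusted p 0.0026, lost when scaled to the total). URB1-AS1 rose from 80.3 ± 11.5 to 126 ± 4.70 normalized reads (log2 fold change 0.65, SE 0.14, adjusted p 1.1e-04) while URB1, a factor of ribosome assembly, fell from 3197 ± 61.5 to 2711 ± 90.5 (adjusted p 1.2e-08). AC012360.3 rose as C2orf49 fell, and AC008764.6 rose as CHERP fell. The AC008764.6 call was lost in 6 alternatives, among them without any of control libraries 2 and 3 and RBP4 libraries 1 and 3. CRNDE, first described in colorectal tumours, fell from 1227 ± 36.6 to 1103 ± 35.3 normalized reads (log2 fold change -0.15, SE 0.047, adjusted p 0.0043) and ZNF674-AS1 fell from 147 ± 14.6 to 119 ± 13.4 normalized reads (log2 fold change -0.30, SE 0.13, adjusted p 0.042), while IRX5 and ZNF674 rose. The CRNDE call was lost when scaled to the total. That of IRX5 was lost in DESeq2, without the filter on low values, and without control library 3 or RBP4 library 1 or 3. That of ZNF674-AS1 was lost in 9 of 15 alternatives, among them without control library 1 or 2 and RBP4 library 2 or 3. The AF117829.1 call was lost in DESeq2 and without control library 2 or RBP4 library 1.

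**Figure D5:**
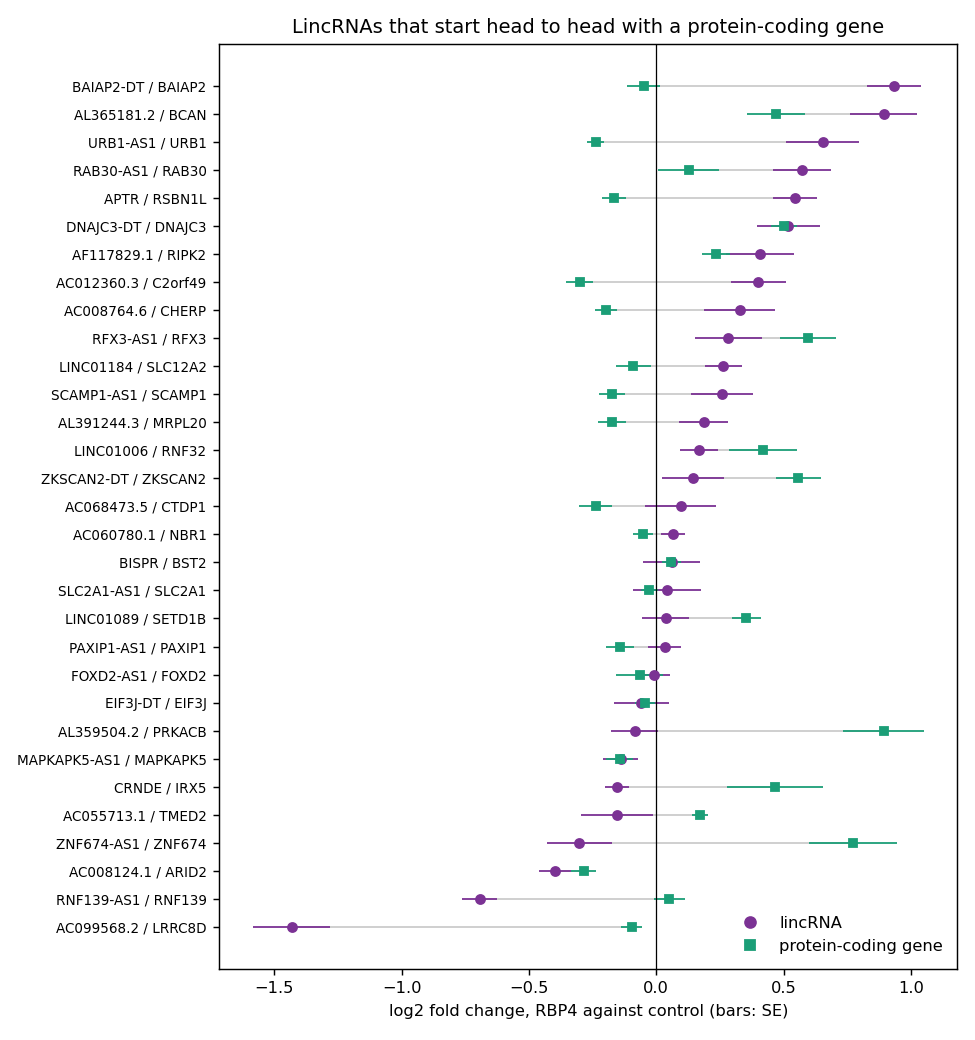
For 31 of the head-to-head pairs whose genes were both tested, points give the log2 fold change of RBP4 against control of the lincRNA (circle) and of the protein-coding gene (square), with bars for the SE. Circles and squares lie on the same side of 0 in some pairs, such as DNAJC3-DT and DNAJC3 at 0.52 and 0.50, and on opposite sides in others, such as URB1-AS1 and URB1.

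Over all 171, the nearest tested protein-coding gene, at a median distance of 58455 bases between starts, did not follow the call of the lincRNA in most cases. Of the 41 raised lincRNAs, 9 had a raised neighbour and 13 a lowered one. Of the 49 lowered lincRNAs, 10 had a raised neighbour and 21 a lowered one, and of the 81 that did not pass, 16 and 34. By position, 29 of the lincRNAs overlap a protein-coding gene (6 raised, 8 lowered), 21 others start head to head with one (7 raised, 6 lowered) and 121 do neither (28 raised, 35 lowered). Among the 85 that overlap no other gene at all, and so share no position with reads of another gene, 26 rose and 28 fell. The share called was 63.5% of these 85 and 41.9% of the 86 that overlap another gene, beside 50.6% of all genes. It was 31.25% of the 16 with over 10% of their exon bases overlapped. The part of overlap in these shares was not tested. In structure, 41 had a single exon, of which 10 rose and 14 fell, and the median length of the gene model was 2713 bases. Median GC content of the longest transcript was 45.9% in the raised, 45.1% in the lowered and 46.3% in the other lincRNAs.

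RefSeq promoter windows, 250 bases before to 50 after a gene's start, were matched to 51 of the 171, and in 28 of these the start lay within 100 bases of the table's: 7 raised, 7 lowered and 14 that did not pass. Motifs were searched on both strands, and the share over 27305 promoters of the same length is given beside each. ACGTG, the hypoxia response core, was found in 1 raised, 4 lowered and 5 other lincRNAs, beside 21.6% of all promoters. The 4 lowered ones were MIR210HG and NORAD, whose calls were kept in all 15 alternatives, and LINC02241 and ZNF674-AS1, whose calls were lost in 11 and 9 of them. LINC02241 was lost without any 1 of the control libraries and without RBP4 library 1 or 3. The E-box CACGTG, which contains ACGTG, was found in 2 lowered lincRNAs of these 28, beside 7.44% of all. TGATGNAA, the core of the ATF4 and CHOP composite element, was found in 2 of the 14 that did not pass (3.67% of all promoters), and TGANTCA, read by AP-1, in 1 raised and 3 of the 14 (7.76%). TGACNNNGC, the antioxidant response core, was found in 2 raised, 2 lowered and 4 others (13.6%), and AGATAA, read by GATA factors, in 1 lowered and 4 others (10.5%). The ER stress element had no match in the 28, and it occurs in 0.0806% of all promoters. A match is a description of the letters in these windows.

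Among lincRNAs known from cancer, PVT1 did not pass. PVT1, which lies beside MYC on chromosome 8, had 529.9, 496 and 512 normalized reads in the control libraries and 492, 549 and 489 in the RBP4 libraries, and the groups overlapped (adjusted p 0.92). MYC itself, its nearest tested protein-coding gene, fell from 7504 to 5464 normalized reads (log2 fold change -0.46, adjusted p 1.8e-22). CCDC26, a lincRNA of the same arm linked to myeloid leukaemia, fell from 521 ± 16.0 to 463 ± 11.5 normalized reads (log2 fold change -0.17, SE 0.066, adjusted p 0.027), but this missed the threshold in 6 of 15 alternatives, with adjusted p from 0.022 to 0.20, among them without control library 2, RBP4 library 1 or RBP4 library 3. The most abundant lincRNAs that did not pass were HCG11, with 1231 normalized reads in the control and 1218 in the RBP4 group, AC060780.1 with 1139 and 1191, AC134978.1 with 770.5 and 850.2, and BX890604.2 with 734 and 743. AC134978.1 passed in 7 of 15 alternatives, always as raised. FAM157C had the largest change that did not pass: it had 399, 413 and 359.8 normalized reads in the control libraries and 201, 181 and 343 in the RBP4 libraries. RBP4 library 3 lay near the control libraries, the other RBP4 libraries far below them, and the groups did not overlap (log2 fold change -0.75, SE 0.28, adjusted p 0.095). Of its 50-base stretches 71.9% occur in other genes, and likewise 85.0% of those of AC138035.1, 64.6% of LINC00623 and 59.3% of LINC02193, so the values of these 4 are uncertain.

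In 5 of 6 lists of proteins that act on lincRNAs, most tested genes were lower at the messenger level with the authors' size factors. When scaled to the total, the paraspeckle list lost the calls of EWSR1, HNRNPUL1, NUDT21 and RBM3. The nuclear decay list lost EXOSC8, EXOSC10, MTREX and PABPN1, and the miRNA processing list PRKRA, AGO3, AGO4 and TUT4. In these lists, lowered genes were then no longer most of those tested. Of all protein-coding genes, 66.9% fell at 2000 or more normalized reads and 39.7% at 500 to 2000. The median level was above 2000 for the paraspeckle, speckle and lincRNA-binding lists and between 500 and 2000 for the nuclear decay, nonsense-mediated decay and miRNA processing lists. Of 25 tested paraspeckle proteins, 2 rose and 15 fell (median log2 fold change -0.12): SFPQ, a core protein that binds NEAT1, rose 1.36-fold, HNRNPK fell 1.30-fold and HNRNPR 1.35-fold. Of 20 nuclear speckle proteins, 1 rose and 15 fell (median -0.21), with U2AF2, a splice site factor, 1.36-fold, RBM25 1.33-fold, PRPF4B 1.39-fold and SRRM2 1.20-fold lower. Of 17 proteins known to bind or modify lincRNAs, 14 fell and 3 did not pass (median -0.24), with HNRNPU 1.28-fold, PTBP1 1.29-fold and IGF2BP1 1.28-fold lower. Of 20 genes listed for RNA decay in the nucleus, 2 rose and 12 fell (median -0.13), with the exosome nuclease gene DIS3 1.39-fold lower and EXOSC7 1.32-fold lower. That list contains MPP6, a symbol that in this annotation stands for a membrane scaffold gene and not for the exosome factor intended. Of 17 genes of nonsense-mediated decay, 2 rose and 8 fell (median -0.087), with EIF4A3 1.48-fold and UPF1 1.22-fold lower, and 4 rose and 5 fell when scaled to the total. Of 17 genes of miRNA processing, 1 rose and 12 fell (median -0.15), with LIN28A, which blocks the maturation of let-7, 2.82-fold lower, LIN28B 1.31-fold, XPO5 1.18-fold and AGO2 1.20-fold.

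A list of 36 well-known long non-coding RNAs, which holds 11 of the 171 and others outside them, had 28 tested genes, of which 6 rose and 15 fell (median -0.14). Outside the 171, KCNQ1OT1, an imprinted antisense RNA, fell from 1305 ± 47.5 to 899 ± 24.5 normalized reads (adjusted p 1.8e-15), DANCR from 1594 ± 96.4 to 1255 ± 36.4 normalized reads (adjusted p 8.9e-10) and TUG1 from 3566 ± 104 to 3319.6 ± 43.3 normalized reads (adjusted p 0.0056, lost when scaled to the total). Raised outside the 171 were, beside MIR22HG, the low genes LUCAT1 (16.2 to 32.5 normalized reads, 2.00-fold, adjusted p 0.0040), NRAV (89.5 to 123, 1.37-fold, adjusted p 0.0051, lost in DESeq2) and MIAT (30.9 to 50.3, 1.63-fold, adjusted p 0.010). The groups overlapped for MIAT, whose call was lost in DESeq2 and without control library 1 or 3 or RBP4 library 3. H19, an imprinted RNA of another region, had 81.8, 39.2 and 48.2 normalized reads in the control libraries and 0, 4.72 and 1.91 in the RBP4 libraries. Of the marker lists, 4 erythroid genes rose and 4 fell of 11, and of 4 tested monocyte and macrophage genes ITGAM, LYZ and SPI1 rose and CD33 fell. Megakaryocyte markers had 2 tested genes (ITGA2B raised), T and NK markers 2 (CD3D lowered), squamous and epithelial markers 1 (EPCAM lowered) and fibroblast markers 2 (COL1A1 raised, COL1A2 lowered). The call of SPI1 was lost in DESeq2 and without RBP4 library 2. Those of CD3D and COL1A2 were lost in DESeq2 and without control library 3 or RBP4 library 1. Their part in the changes of the lincRNAs was not tested.

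At the edge of the rule, the 3 lincRNAs just inside were HCG27, AL117379.1 and AC005381.1 with means of 102.0, 101.9 and 101.0 normalized reads, and the 3 just outside were KAZN-AS1, AC138393.3 and AC104794.2 with 98.7, 97.8 and 96.0. KAZN-AS1 had 54.9 normalized reads in the control and 143 in the RBP4 group. In the authors' deposited table, 33 of the 171 were raised and 33 lowered at an adjusted p under 0.05, all of them in the direction found here, and 24 lincRNAs were called here and not there.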

How the data were processed

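Gene expression was measured by RNA sequencing in 6 libraries, 3 control and 3 RBP4, grouped by sample title. Per the labels' protocols, poly-T beads selected the RNA and the NEBNext Ultra kit, which is unstranded, was used. The deposited table gives a signal for each gene in each library, which is its read count divided by a size factor, and, per the file headers, log2 fold changes and p-values from a comparison by the authors. Aligner and counter: not given in the sources used here. Every value was a whole multiple of the library's step (100% within 0.01 reads), which gave the reads behind it, 15202000 to 16420517 per library. The step of control library 2 was 1.01, so its normalized values nearly equal reads. No per-sample column was left unused (0).

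The 15676 genes that reached a value of 10 in 3 or more libraries were fitted by limma-trend with robust moderation on log2(value + 1), two-sided, with Benjamini-Hochberg adjustment over all of them and a threshold of 0.05 (R 4.3.3, limma 3.58.1). These fold changes understate those of low genes. The planned test for a table of raw counts, edgeR, was kept as an alternative because the table holds normalized values. DESeq2 1.42.0 and edgeR 4.0.16 were run on the recovered reads as alternatives, beside other pseudocounts (5 and 0.5), filters, scalings, a replicate block and each library left out. Positions are those of GENCODE release 29 (GRCh38), whose starts and ends equalled those of all 28847 genes, and sequences are from RefSeq.

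The lincRNAs and the 15 gene lists were chosen with earlier results of these data known. Named genes are the 12 raised and 12 lowered lincRNAs with the largest called changes without overlap, the 8 with the highest mean, those in the list of well-known long non-coding RNAs, the 4 most abundant that did not pass, nearest protein-coding genes, up to 4 genes per other list, and the 3 on each side of the level of 100. Others, among them the genes of head-to-head pairs and clusters, were chosen after their values were seen. A few genes, 1 head-to-head pair and 1 marker list are not reported here.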

Additional observations from a re-analysis of the deposited data

How the results depend on the processing

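Of the 15 alternatives run on all genes, none reversed the sign of a called lincRNA. Of the 89 called lincRNAs whose levels are given, 62 kept their call in every alternative and 14 lost it in 5 or more. Scaling libraries to their total gave 53 raised and 32 lowered lincRNAs and a median log2 fold change of 0.073, with that of all genes at 0.066. DESeq2 called 33 raised and 33 lowered, and edgeR 43 and 45. Counting only lincRNAs that overlap no other gene left 26 raised and 28 lowered, of 85, or 63.5% called beside 52.6% of all 171. Leaving out 1 library at a time gave 36 to 41 raised, 42 to 43 lowered, 5 to 7 changed at least 2-fold and a median of -0.016 to 0.0082, the lowest medians coming without RBP4 library 2 (-0.016) and without control library 3 (-0.0097). With the replicate number as a block, 42 rose and 47 fell, and 88 of 90 calls remained. The numbers did not pair the libraries: deviations of same-numbered libraries correlated at 0.0037, -0.0079 and -0.017. Between replicates, chi-square per degree of freedom was 1.82 to 2.24, so no library was a duplicate of another. Gene counts of the lists moved by over 1.5 times mainly where few genes were called. With 15202000 or more reads per library, a member at the lowest mean level rests on about 100 reads per library over the 6 libraries, and on fewer in the group where it is lower.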
